A study of Mus musculus with 27 samples.

Results

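Heterozygous *Shank2*-mutant mice (HT) were compared with wild-type mice of the same age (WT) at 12 weeks (W12), which takes 8 of the 27 mice of the series, 4 W12-HT and 4 W12-WT. The study sequenced mRNA from the medial prefrontal cortex (PFC) of single male mice at 3 weeks (W3) and 12 weeks, in 3 genotypes: WT, HT and homozygous mutant (HM). It asked how the PFC transcriptome depends on the number of mutant *Shank2* copies and on age. All mice were C57BL/6 by strain background, and none was treated. The mutant allele comes from the line B6N.129S4-*Shank2*tm1Mgle, in which a pair of exons is deleted in every cell from conception. W12-HT mice carry 1 copy of it, W12-WT mice none and W12-HM mice 2. The name of the line records an origin in 129S4 cells, so the mutation and any 129S4 sequence still linked to it cannot be told apart in these groups. Each library came from the PFC of 1 mouse, with no pooling, and covers all cell types of the dissected tissue, so that fewer cells of a type and less RNA per cell cannot be told apart.

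SHANK2 is a scaffold protein of the postsynaptic density of excitatory synapses, where it links glutamate receptor complexes to the actin cytoskeleton through partners such as Homer and cortactin. SHANK1, SHANK2 and SHANK3 share this role, and mutations in human *SHANK2* are associated with autism spectrum disorder and intellectual disability. In mice, loss of *Shank2* alters NMDA receptor function and social behavior. The PFC, in which these mice were profiled, serves social and executive functions and holds excitatory pyramidal neurons, several classes of inhibitory interneurons and glia.

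Of the 18757 genes in the deposited table, 17241 had a mean of at least 10 normalized counts over the 8 mice and were tested. Normalized counts are the authors' Salmon estimates scaled between mice with DESeq2, and their totals, in units of 1e+06, were 29.3 to 29.6 in W12-HT and 29.7 to 30.1 in W12-WT mice. The lowest values above 0 place 1 read at about 0.83 to 1.19 normalized counts, or roughly 24.7 to 36.2 times 1e+06 reads a mouse. The defining marker of cortical excitatory neurons, *Slc17a7*, was at 41455 to 46741 normalized counts in these mice, and every list of cortical cell type markers was expressed. The striatal list (13 genes) was also present, with summed levels of 13598 to 17276 in W12-HT and 10975 to 22714 in W12-WT mice, lowest in WT1 and highest in WT4. 1 W12-HM mouse, HM4, stood apart from the other mice on the first principal component. It entered the comparison of W12-HT with W12-WT mice only through the shared estimate of spread, and it is included in every W12-HM value given below.

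The targeted gene was examined first. *Shank2* spans chr7:144001928-144424494 on the plus strand (GRCm38), and its values were 7406, 7670.2, 7089 and 6737 normalized counts in the W12-WT mice and 5385, 5176, 4289 and 4347 in the W12-HT mice. Every W12-HT mouse lay below every W12-WT mouse, and the W12-HT mean was 66.4% of the W12-WT mean (log2 fold change -0.60, SE 0.088, adjusted *p* = 0.0217, limma). These are totals over the gene, so transcripts with and without the deleted exons are counted together. *Shank1* was at 22730.1 ± 2009 normalized counts in W12-HT and 23033 ± 2111 in W12-WT mice (SD, n = 4, log2 fold change -0.019, adjusted *p* = 0.954). *Shank3* was at 8330.2 ± 375 against 9151 ± 803 (SD, n = 4, log2 fold change -0.13, adjusted *p* = 0.432), with its W12-WT mean raised by WT1 at 10354. Neither paralog passed the threshold.

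Across all genes, 9 were higher and 18 were lower in W12-HT mice at an adjusted *p* value under 0.05, or 0.0522% and 0.104% of the genes tested. At an unadjusted *p* value under 0.05 there were 1122 higher (6.51%) and 1134 lower (6.58%), and the median log2 fold change of all genes was 0.00056. These shares are the background for the counts of list members given below, several of which lie near them. All 27 genes past the threshold had groups that did not overlap, a pattern that 3.94% of all genes showed upwards and 4.61% downwards. An exact permutation test of 4 mice against 4 cannot give less than 0.0286, the value each of the 27 reached. Of the 27 genes, 26 were protein-coding, and 2 of the 9 higher genes exceeded a log2 fold change of 1. The changes were otherwise small, from -0.73 to 0.75 on the log2 scale, as the plot of single mice shows.

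**Figure D1:**
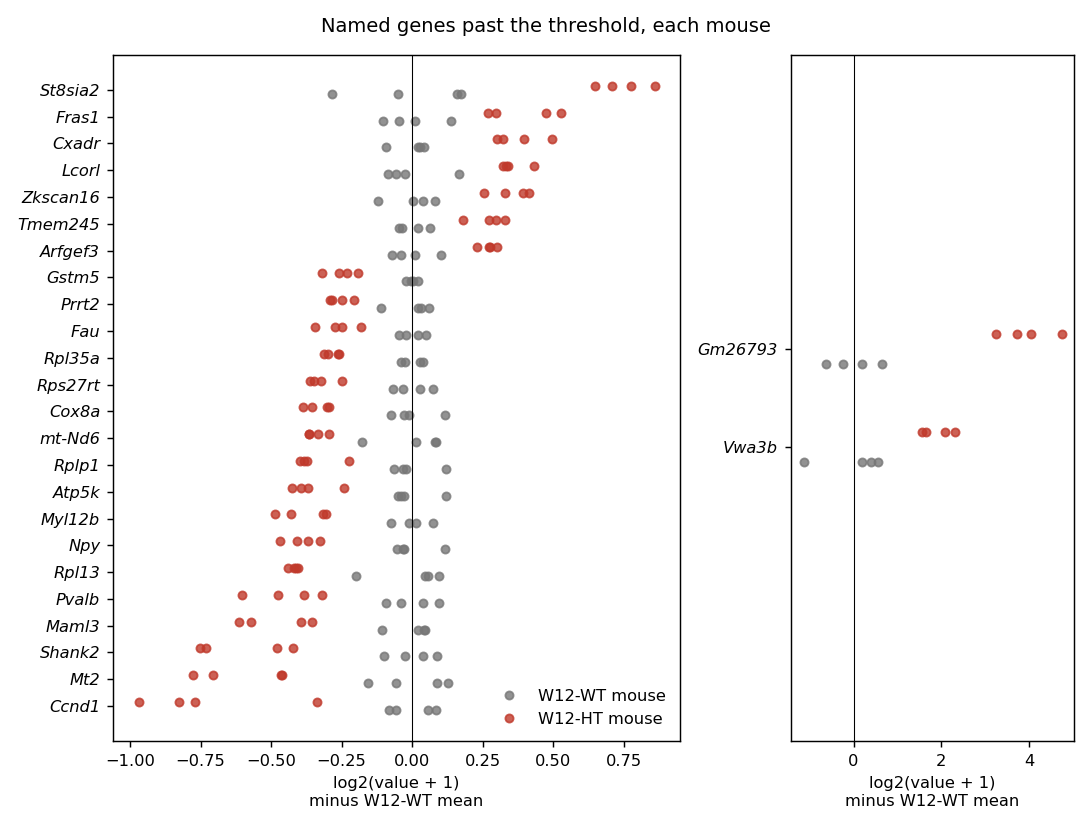
Each point is 1 mouse, placed by its log2(normalized count + 1) minus the W12-WT mean of that gene (horizontal axis), for the genes past the threshold that are named here (rows), with *Gm26793* and *Vwa3b* on a wider axis. In every row the 4 W12-HT mice lie on 1 side of the 4 W12-WT mice.

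The number of genes past the threshold rested on single mice. Without WT3, 1 gene remained past the threshold, *Gm26793*. Without HT3 or WT1 there were 3, without HT2 4, without WT4 6 and without HT1 7. Leaving out WT2 gave 35 and leaving out HT4 gave 42. The W12-HM mice enter through the shared estimate of spread, where dropping HM1 gave 5 genes, dropping HM2 gave 21, dropping HM3 gave 22, and dropping HM4, the mouse that stands apart, gave 93. In each fit that left out a W12-HT or W12-WT mouse, all 27 genes kept an unadjusted *p* value under 0.05. Their direction could not change in these fits, because their groups do not overlap. The 27 were chosen by *p* values from these same mice, so neither point measures how stable the calls are.

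Of the genes past the threshold, the largest rise (*Gm26793*) and the largest fall (*Ccnd1*) both lay within 0.51 Mb beyond the end of *Shank2*. Within 1.5 Mb of the gene, 32 of 37 other genes in the table were tested, of which 1 was higher, 1 was lower past the threshold and 8 in all had an unadjusted *p* value under 0.05. Of these 8, 3 were higher and 5 lower, where 6.51% of all genes tested were higher and 6.58% lower. Past the threshold the shares of all genes were 0.0522% higher and 0.104% lower. *Gm26793*, a non-coding RNA at chr7:144894560-144897461 on the minus strand, was at 2.81, 1.17, 1.84 and 4.24 normalized counts in the W12-WT mice and 87.6, 30.5, 43.01 and 53.9 in the W12-HT mice. The RNA was close to absent in the W12-WT mice, and among the W12-HT mice HT1 was the highest (log2 fold change 3.93, SE 0.34, adjusted *p* = 0.000129). *Fgf15*, a fibroblast growth factor gene that overlaps *Gm26793* on the opposite strand, had a mean of 14.2 in W12-HT, 15.8 in W12-HM and 0.413 in W12-WT mice and was too low to be tested. The library kit does not keep the strand, so reads from the overlap of these 2 genes cannot be told apart.

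*Ccnd1*, which encodes the cell cycle regulator cyclin D1, lies 505437 bases beyond the end of *Shank2*. Its values were 1584, 1618, 1439 and 1467 normalized counts in the W12-WT mice and 779, 1207, 895 and 859 in the W12-HT mice. The W12-HT mean was 61.2% of the W12-WT mean (log2 fold change -0.73, SE 0.13, adjusted *p* = 0.046), with HT2 nearest to the W12-WT mice. *Bc1*, the small brain cytoplasmic RNA found in dendrites, lies between *Gm26793* and *Ccnd1* and was at 484, 397, 486 and 496 normalized counts in the W12-WT mice and 170.3, 296, 255 and 227 in the W12-HT mice. Its groups did not overlap, and it missed the threshold (log2 fold change -0.99, SE 0.19, adjusted *p* = 0.0551). The other neighbors past an unadjusted *p* value of 0.05 had smaller differences. *Cttn*, which encodes the actin-binding SHANK partner cortactin and is the next gene after *Shank2*, had a log2 fold change of -0.17 (adjusted *p* = 0.199), the tetraspanin gene *Cd81* -0.16 (adjusted *p* = 0.196) and the lysosomal channel gene *Tpcn2* -0.38 (adjusted *p* = 0.352). *Mrgpre*, an orphan receptor gene of the Mas-related family, had 0.32 (adjusted *p* = 0.12) and *Tnfrsf22*, a decoy receptor gene, 0.49 (adjusted *p* = 0.331).

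**Figure D2:**
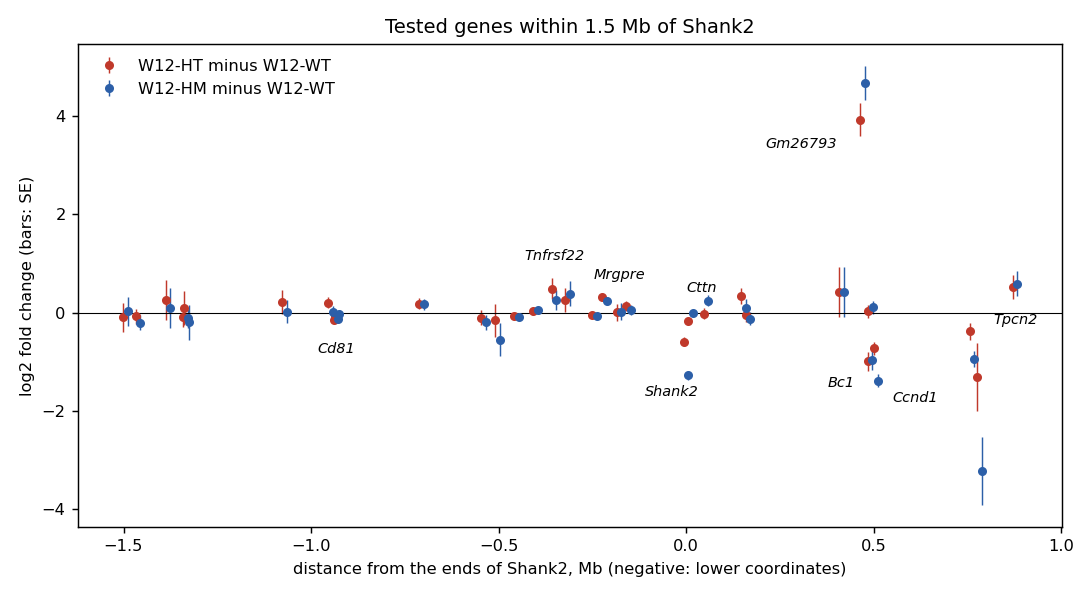
Log2 fold change against W12-WT (vertical axis, bars are SE) of each tested gene by its distance from *Shank2* in Mb (horizontal axis), for W12-HT (red) and W12-HM mice (blue), 4 mice a group. *Gm26793*, *Bc1* and *Ccnd1* lie within 0.51 Mb beyond the end of *Shank2*, and *Gm26793* stands at 3.93 in W12-HT and 4.68 in W12-HM mice.

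Ribosomal protein genes made up 6 of the 18 genes that fell. Cytosolic ribosomal proteins form the large (Rpl) and small (Rps) subunits of the ribosomes that translate nuclear-encoded mRNA, and their mRNAs typically begin with a pyrimidine run at the start of transcription through which their translation is regulated together. Of 84 tested members, 6 were lower and 0 higher past the threshold of limma, 62 were lower and 0 higher at an unadjusted *p* value under 0.05, and 81 had a log2 fold change below 0. In 46 of the 84, all W12-HT mice lay below all W12-WT mice. Over all genes tested, 4.61% showed this, and 6.58% were lower at an unadjusted *p* value under 0.05. The median log2 fold change of the list was -0.17, against 0.00056 over all genes. The study named ribosomal genes from these same mice, so the list is not independent evidence of its direction.

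The promoters of 4 of the 6 are shown because they carry the start of transcription at which the run is sought. Each runs from 40 bases before to 20 bases after the RefSeq start (GRCm38.p6, mouse). Capitals mark a C followed by at least 5 further C or T letters, read on the gene's own strand, that begins within 10 bases of the start. The windows are chr16:33056413-33056472 (plus strand), chr8:123102310-123102369 (plus strand), chr9:114982720-114982779 (minus strand) and chr19:6057907-6057966 (plus strand).
Rpl35a: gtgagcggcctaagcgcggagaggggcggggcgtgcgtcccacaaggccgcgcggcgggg
Rpl13: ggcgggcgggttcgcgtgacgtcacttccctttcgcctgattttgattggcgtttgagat
Rps27rt: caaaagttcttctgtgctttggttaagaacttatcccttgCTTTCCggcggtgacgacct
Fau: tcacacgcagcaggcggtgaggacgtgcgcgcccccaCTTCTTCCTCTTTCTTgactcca

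The run was found at the start in *Rps27rt* and *Fau* and was not found to begin within 10 bases of it in *Rpl35a* and *Rpl13*. In *Rpl13* a run of C and T letters begins further upstream in the stretch shown, more than 10 bases before the start, and ends within those 10 bases. A run that begins within 10 bases of the start was present in 32 of 63 ribosomal protein genes with a promoter sequence (50.8%). The shares were 19.1% of all 27025 promoters and 19.8% of the promoters of genes tested. Mitochondrial ribosomal protein genes held it in 23.2% and nuclear-encoded oxidative phosphorylation genes in 20% of their promoters. The RefSeq start of *Fau* is 103 bases from the GENCODE start. These matches describe the letters only.

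*Rpl35a*, of the large subunit, was at 2019, 1917, 2005 and 1935 normalized counts in the W12-WT mice and 1584, 1641, 1644 and 1599 in the W12-HT mice. All 4 W12-HT values lay between 1584 and 1644, and the mean was 82.1% of the W12-WT mean (log2 fold change -0.28, SE 0.042, adjusted *p* = 0.0217). *Rpl13*, also of the large subunit, was at 5713, 4655, 5558 and 5519 normalized counts in the W12-WT mice and 3942, 3996, 4021 and 4032 in the W12-HT mice. The W12-HT mice were closely grouped and WT2 was the lowest W12-WT mouse (log2 fold change -0.42, SE 0.071, adjusted *p* = 0.0329). *Rplp1* encodes a protein of the ribosomal stalk, and its means were 6125 ± 357 in W12-HT and 7777 ± 449 in W12-WT mice (SD, n = 4, log2 fold change -0.34, adjusted *p* = 0.0413). *Fau*, whose product is cleaved into a ubiquitin-like protein and a ribosomal protein of the small subunit, was at 2712 ± 127 in W12-HT against 3251 ± 94.2 in W12-WT mice (SD, n = 4, log2 fold change -0.26, adjusted *p* = 0.0458). *Rps27rt*, a processed copy of *Rps27*, was at 925 ± 32.2 against 1156 ± 50.7 (SD, n = 4, log2 fold change -0.32, adjusted *p* = 0.0329). Reads of *Rps27rt* can be shared with *Rps27*, which had a log2 fold change of -0.27 (adjusted *p* = 0.809), so that value is uncertain, and many ribosomal protein genes have near-identical pseudogenes. The highest members of the list were *Rpl5* at 0.13 and *Rpl7l1* at 0.12 on the log2 scale. The list was filled partly by gene symbol, so it can hold relatives of ribosomal proteins, such as *Rpl7l1*.

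Ribosomal protein mRNAs are short, and genes with short transcripts had a median below 0. The median transcript length of the list was 1076.5 bases, against 3218 over all genes tested. When the genes were divided into 5 bins of equal size by transcript length, the median log2 fold change was -0.059 in the shortest bin, where 65.1% of genes were lower. In the longest bin it was 0.057, and 32.1% were lower. A gradient also ran over 5 bins of GC content, from 0.061 in the lowest to -0.058 in the highest. Of the 18 genes that fell, 11 were in the shortest bin, and of the 9 that rose, 6 were in the longest. After each mouse was corrected for transcript length and GC content, the median of the ribosomal protein list was -0.12 and 1 member was past the threshold, *Rpl35a*. Length and GC content are those of the longest annotated transcript of each gene, which is 2858 bases for *Rpl35a*, above the list median. The log2 fold change of *Rpl35a* was -0.28 before the correction and -0.32 after it. A correction that uses another transcript of a gene was not tested. The number of members past the threshold was 0 without HT1, HT2, HT3, WT1, WT3 or WT4, 6 without WT2, 8 without HT4, 1 without HM1, 4 without HM2, 5 without HM3 and 10 without HM4.

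**Figure D3:**
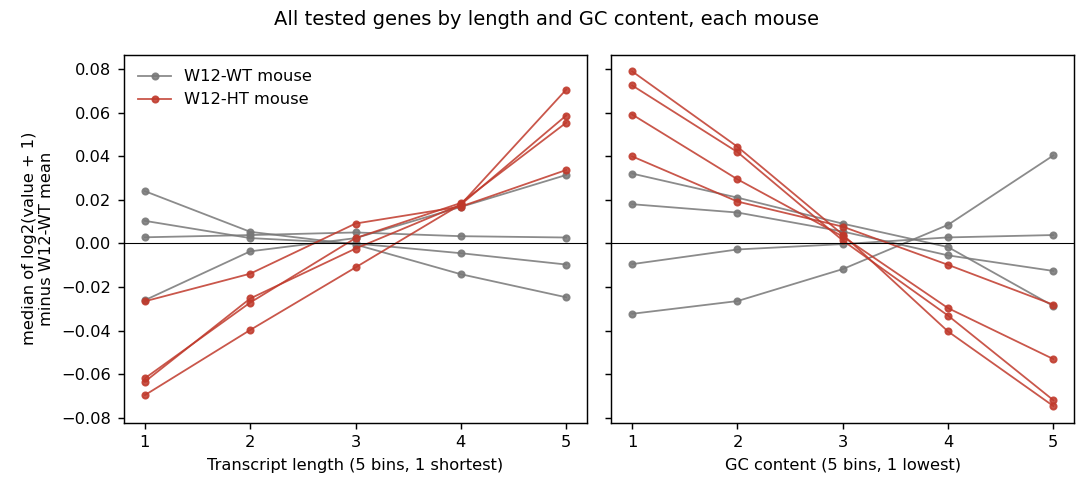
Each line is 1 mouse and gives the median over genes of log2(normalized count + 1) minus the W12-WT mean (vertical axis), by 5 bins of transcript length (left) and of GC content (right), with 3445 to 3448 genes a bin. W12-HT lines (red) rise with length from medians between -0.070 and -0.027 to medians between 0.034 and 0.071, and fall with GC content, while W12-WT lines (gray) run in both directions.

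Genes of the respiratory chain also had medians below 0. Nuclear-encoded subunits of oxidative phosphorylation, the complexes that transfer electrons and make ATP in mitochondria, had a median log2 fold change of -0.11 over 81 tested members. Of these, 2 were lower and 0 higher past the limma threshold, 30 were lower and 0 higher at an unadjusted *p* value under 0.05, and 77 had a log2 fold change below 0. *Cox8a*, a subunit of cytochrome c oxidase, was at 9039, 7934, 8283 and 8184 normalized counts in the W12-WT mice and 6774, 6535, 6385 and 6813 in the W12-HT mice. No value of 1 group reached the other (log2 fold change -0.33, SE 0.051, adjusted *p* = 0.0263). *Atp5k*, a subunit of ATP synthase, was at 961, 854, 867 and 859 normalized counts in the W12-WT mice and 673, 684, 659 and 748 in the W12-HT mice. HT4 was nearest to the W12-WT mice (log2 fold change -0.36, SE 0.061, adjusted *p* = 0.0329). *Atp5e*, of the same enzyme, missed the threshold (log2 fold change -0.29, adjusted *p* = 0.0596). The correction for length and GC content left a list median of -0.072, with *Cox8a* at -0.23 (adjusted *p* = 0.11) and *Atp5k* at -0.27 (adjusted *p* = 0.116).

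Of 15 genes encoded in the mitochondrial genome, 1 was lower past the threshold and 14 had a log2 fold change below 0, with a median of -0.18. *mt-Nd6*, a subunit of complex I, was at 39534, 32916, 39356 and 37605 normalized counts in the W12-WT mice and 30338, 29536, 28881 and 28930.4 in the W12-HT mice. The W12-HT mice lay closer together than the W12-WT mice, of which WT2 was the lowest (log2 fold change -0.34, SE 0.056, adjusted *p* = 0.0329). It remained past the threshold after the correction for length and GC content (log2 fold change -0.39, adjusted *p* = 0.00613). Its reads cannot be told apart from those of the opposite strand of the mitochondrial genome. *mt-Nd2* and *mt-Nd1* had log2 fold changes of -0.28 (adjusted *p* = 0.0787) and -0.24 (adjusted *p* = 0.104). The summed level of the 15 genes was 1565530 to 1757680 normalized counts in W12-HT and 1765180 to 2008700 in W12-WT mice. Mitochondrial ribosomal proteins (78 tested) had 0 members past the threshold, 10 lower at an unadjusted *p* value under 0.05 and a median of -0.071. The 3 with the smallest *p* values were *Mrpl52* at -0.45 (adjusted *p* = 0.0785), *Mrps6* at -0.25 (adjusted *p* = 0.181) and *Mrpl48* at -0.14 (adjusted *p* = 0.217).

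**Figure D4:**
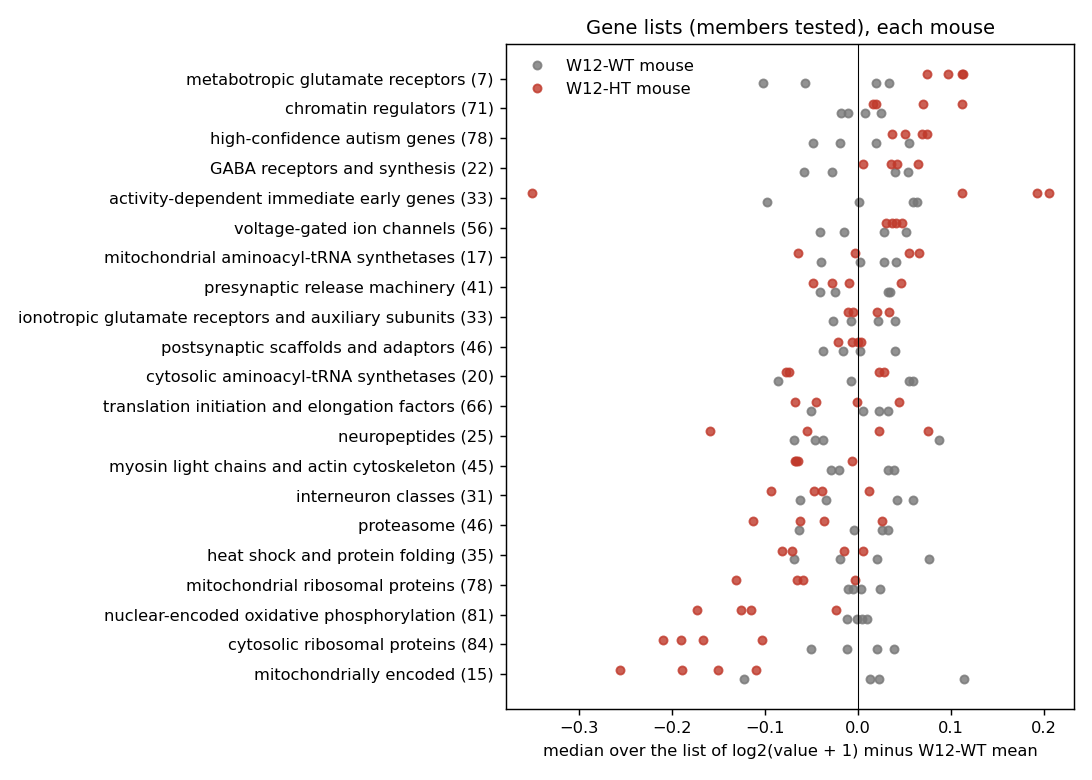
Each point is 1 mouse and gives the median over a gene list of log2(normalized count + 1) minus the W12-WT mean (horizontal axis), with the number of members tested in brackets. For cytosolic ribosomal proteins and nuclear-encoded oxidative phosphorylation the 4 W12-HT mice lie below the 4 W12-WT mice, and for immediate early genes HT1 lies at -0.35, apart from the other mice.

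A pair of genes that mark interneurons fell. *Npy* encodes neuropeptide Y, a peptide released by a subset of cortical interneurons, and was at 1655, 1494, 1497 and 1473 normalized counts in the W12-WT mice and 1104, 1182, 1219 and 1153 in the W12-HT mice. The W12-HT mean was 76.1% of the W12-WT mean, and WT1 lay above the other W12-WT mice (log2 fold change -0.39, SE 0.052, adjusted *p* = 0.0144). *Npy* was past the threshold in 7 of the 8 fits that left out a W12-HT or W12-WT mouse, missing it without WT3. *Pvalb* encodes parvalbumin, the calcium buffer of fast-spiking interneurons, and was at 815, 785, 893 and 859 normalized counts in the W12-WT mice and 551, 602, 670.3 and 641 in the W12-HT mice. Its groups did not overlap (log2 fold change -0.45, SE 0.081, adjusted *p* = 0.0458), and it was past the threshold in 1 of the same 8 fits, with adjusted *p* values up to 0.196. Over the 31 tested genes of interneuron classes, these 2 were lower and 0 were higher past the threshold, 6 were lower and 2 higher at an unadjusted *p* value under 0.05, and the median was -0.044. Of the 31, 21 had a log2 fold change below 0 and 10 above it. *Nos1*, named after its value was seen, was among the 10, at 0.17 (adjusted *p* = 0.352). *Lamp5*, a marker of neurogliaform cells that is also expressed in upper cortical layers, was at -0.29 (adjusted *p* = 0.0785), and *Sst*, which encodes somatostatin, at -0.21 (adjusted *p* = 0.178).

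General markers of inhibitory neurons did not pass the threshold. *Gad1*, the enzyme of GABA synthesis, was at 7519.8 ± 498 in W12-HT and 8022 ± 719.6 in W12-WT mice (SD, n = 4, log2 fold change -0.091, adjusted *p* = 0.625). The inhibitory neuron list (9 genes, *Pvalb* and *Sst* among them) had a median of -0.091 and summed levels of 20114 to 22632 in W12-HT and 21757 to 24596 in W12-WT mice. Of its 9 genes, 6 were below 0 and 3 above it, with 2 lower and 1 higher at an unadjusted *p* value under 0.05. Of 25 neuropeptide genes, *Npy* alone was past the threshold, and 5 were lower and 0 higher at an unadjusted *p* value under 0.05. *Vgf*, an activity-regulated peptide precursor, was at 5810.2, 6915, 5923 and 6380.2 normalized counts in the W12-WT mice and 4093, 5367, 5134 and 5176 in the W12-HT mice, without overlap (log2 fold change -0.34, adjusted *p* = 0.0951).

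5 further genes fell. *Myl12b*, a regulatory light chain of non-muscle myosin, was at 3908, 4074, 3846 and 3682 normalized counts in the W12-WT mice and 2767, 2878, 3111 and 3135 in the W12-HT mice. The highest W12-HT mouse was at 3135 and the lowest W12-WT mouse at 3682 (log2 fold change -0.38, SE 0.053, adjusted *p* = 0.0163). Among 45 tested genes of myosin light chains and the actin cytoskeleton it was the only one past the threshold, while 11 were lower and 1 higher at an unadjusted *p* value under 0.05, *Myl4* at -0.33 (adjusted *p* = 0.0951) and the thymosin gene *Tmsb4x* at -0.18 (adjusted *p* = 0.124) among them. *Mt2*, which encodes a metal-binding metallothionein, was at 1747, 1631, 1982 and 1930.4 normalized counts in the W12-WT mice and 1059, 1113, 1321 and 1316 in the W12-HT mice. HT1 and HT2 were the lowest (log2 fold change -0.60, SE 0.10, adjusted *p* = 0.0329). Its relatives *Mt1* at -0.44 (adjusted *p* = 0.117) and *Mt3* at -0.36 (adjusted *p* = 0.0785), chosen after their values were seen, missed the threshold. *Prrt2*, a presynaptic protein linked to paroxysmal movement disorders, was at 6582 ± 174 against 7876 ± 407 (SD, n = 4, log2 fold change -0.26, adjusted *p* = 0.0329). The glutathione transferase gene *Gstm5* was at 2068 ± 76.6 against 2461 ± 31.4 (SD, n = 4, log2 fold change -0.25, adjusted *p* = 0.0413). *Maml3*, a transcriptional coactivator of Notch signaling, was at 297, 329.7, 330.5 and 325 normalized counts in the W12-WT mice and 215, 243, 250.1 and 209 in the W12-HT mice, without overlap (log2 fold change -0.48, SE 0.089, adjusted *p* = 0.0458).

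8 genes other than *Gm26793* rose. *St8sia2*, which adds polysialic acid to the neural cell adhesion molecule, was at 70.9, 97.7, 83.4 and 96.8 normalized counts in the W12-WT mice and 142, 136, 158 and 149 in the W12-HT mice. The lowest W12-HT mouse stood at 136 and the highest W12-WT mouse at 97.7 (log2 fold change 0.75, SE 0.13, adjusted *p* = 0.0413). *Vwa3b*, a gene of the von Willebrand factor A domain family, was at 23.6, 21.01, 18.02 and 6.62 normalized counts in the W12-WT mice and 70.1, 51.2, 47.9 and 82.4 in the W12-HT mice. This gene is expressed at a low level, and WT4 was below the other W12-WT mice (log2 fold change 1.90, SE 0.34, adjusted *p* = 0.0413). *Cxadr* encodes a cell adhesion protein that serves as the coxsackievirus and adenovirus receptor, and its means were 1329.9 ± 82.1 in W12-HT and 1022 ± 42.7 in W12-WT mice (SD, n = 4, log2 fold change 0.38, adjusted *p* = 0.0329). *Fras1*, an extracellular matrix protein, was at 1612 ± 144 against 1228 ± 88.7 (SD, n = 4, log2 fold change 0.39, adjusted *p* = 0.0458).

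The zinc finger gene *Zkscan16* had a log2 fold change of 0.35 (adjusted *p* = 0.0329) and *Lcorl*, a nuclear receptor cofactor of the ligand-dependent corepressor family, 0.36 (adjusted *p* = 0.0463). *Arfgef3*, a large protein related to activators of ARF GTPases, and the transmembrane protein gene *Tmem245* both had 0.27 (adjusted *p* = 0.0329 and 0.0413). The 9 genes that rose had a median transcript length of 5742 bases and the 18 that fell 1030 bases, against 3218 over all genes. After the correction for length and GC content, 6 of the 27 remained past the threshold: *Gm26793*, *Shank2*, *Rpl35a*, *mt-Nd6*, *Myl12b* and *Maml3*. All 27 kept their direction. In the 8 uncorrected fits that left out a W12-HT or W12-WT mouse, *Gm26793* passed in 8, and *Shank2* and *Myl12b* in 5. In the same fits *Rpl35a* and *mt-Nd6* passed in 2 and *Maml3* in 0. Several that missed the threshold after the correction had nearly the same log2 fold change as before it. *Ccnd1* was at -0.73 before and after (adjusted *p* = 0.077 after), *Vwa3b* at 1.90 and 1.88 (adjusted *p* = 0.0747) and *St8sia2* at 0.75 and 0.72 (adjusted *p* = 0.0747). Others were closer to 0 after it, with *Tmem245* at 0.27 and 0.14 (adjusted *p* = 0.243), *Lcorl* at 0.36 and 0.23 (adjusted *p* = 0.304) and *Fau* at -0.26 and -0.16 (adjusted *p* = 0.288).

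Postsynaptic genes, the molecular partners of SHANK2, were spread on both sides of 0. Of 46 tested scaffolds and adaptors, 0 were past the limma threshold, 3 were higher and 6 lower at an unadjusted *p* value under 0.05, and the median was -0.0043. Besides *Cttn*, the members with the smallest *p* values were *Cnksr2*, a scaffold of Ras signaling, at 0.17 (adjusted *p* = 0.175) and *Kalrn*, a guanine nucleotide exchange factor of dendritic spines, at 0.11 (adjusted *p* = 0.189). Among 33 ionotropic glutamate receptor subunits and auxiliary proteins, 0 were past the threshold, 6 were higher and 4 lower at an unadjusted *p* value under 0.05, and the median was 0.0053. *Cacng2*, which encodes the AMPA receptor auxiliary protein stargazin, was at 2668, 2720.3, 2781 and 2677 normalized counts in the W12-WT mice and 2371, 2393, 2277 and 2145 in the W12-HT mice. The groups did not overlap, and the gene missed the threshold (log2 fold change -0.24, SE 0.046, adjusted *p* = 0.055). *Cacng7*, of the same family, had -0.20 (adjusted *p* = 0.0662), and the NMDA receptor subunit gene *Grin3a* 0.22 (adjusted *p* = 0.16).

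The 7 tested metabotropic glutamate receptors had a median of 0.085, with *Grm5* at 0.22 (adjusted *p* = 0.154), *Grm3* at 0.18 (adjusted *p* = 0.262) and *Grm7* at 0.085 (adjusted *p* = 0.609). Presynaptic release genes (41 tested) had a median of 0.012, with 4 higher and 6 lower at an unadjusted *p* value under 0.05. *Cplx1* (complexin), *Vamp1* (synaptobrevin) and *Rph3a* (rabphilin) were at -0.25, -0.25 and -0.16, with adjusted *p* values of 0.084, 0.0951 and 0.119. Of 22 genes of GABA receptors and GABA synthesis, 5 were higher and 1 lower at an unadjusted *p* value under 0.05, with the receptor subunits *Gabrb2* at 0.27 (adjusted *p* = 0.128) and *Gabrb1* at 0.20 (adjusted *p* = 0.181). In these 3 lists 0 members were past the limma threshold.

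Among chromatin regulators, autism genes and ion channels, more members were higher than lower. Of 71 tested chromatin regulators, 0 were past the limma threshold, 13 were higher and 0 lower at an unadjusted *p* value under 0.05, 48 had a log2 fold change above 0, and the median was 0.074. *Adnp*, a chromatin-associated transcription factor and autism gene, was at 1075, 1532, 1366 and 1562 normalized counts in the W12-WT mice and 1822, 1724, 2081 and 1976 in the W12-HT mice. HT2, the lowest W12-HT mouse, was above WT4, the highest W12-WT mouse (log2 fold change 0.47, SE 0.11, adjusted *p* = 0.0951). The histone methyltransferase gene *Kmt2b* had 0.25 (adjusted *p* = 0.127) and *Setd5* 0.18 (adjusted *p* = 0.12). High-confidence autism genes (78 tested) had 1 member past the threshold, *Shank2* itself, with 19 higher and 5 lower at an unadjusted *p* value under 0.05 and a median of 0.064. The median transcript length was 7916 bases for the chromatin list and 7347 for the autism list. After the correction for length and GC content their medians were 0.014 and -0.0040, so the sign of the autism list turned.

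Voltage-gated ion channels (56 tested) had a median of 0.029, with 12 higher and 5 lower at an unadjusted *p* value under 0.05 and 0 past the limma threshold. The potassium channel genes *Kcna4* and *Kcna3* had 0.58 (adjusted *p* = 0.102) and 0.35 (adjusted *p* = 0.084). The sodium channel gene *Scn2a*, on the autism list as well, had 0.22 (adjusted *p* = 0.11). The corrected median of the channel list was 0.000965.

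Other gene lists of protein synthesis had medians nearer to 0. Translation initiation and elongation factors (66 tested) had a median of -0.014, with 7 lower and 0 higher at an unadjusted *p* value under 0.05. *Eef1d*, a subunit of the elongation factor that recharges eEF1A, was at -0.18 (adjusted *p* = 0.0951), *Eif3k* at -0.19 (adjusted *p* = 0.208) and *Eef2k* at -0.21 (adjusted *p* = 0.262). Cytosolic aminoacyl-tRNA synthetases (20 tested), which charge tRNAs with amino acids, had a median of -0.0095, with *Farsa* at -0.15 (adjusted *p* = 0.316), *Tars* at 0.17 (adjusted *p* = 0.325) and *Qars* at -0.15 (adjusted *p* = 0.372). Their mitochondrial counterparts (17 tested) had a median of 0.015, with 4 higher and 1 lower at an unadjusted *p* value under 0.05. *Lars2*, the mitochondrial leucyl-tRNA synthetase, was at 4325, 4565, 4673 and 6261 normalized counts in the W12-WT mice and 7921, 5009.7, 7828 and 7508 in the W12-HT mice. HT2 lay within the W12-WT range (log2 fold change 0.50, adjusted *p* = 0.173). *Ears2* and *Mars2* had 0.39 (adjusted *p* = 0.181) and 0.19 (adjusted *p* = 0.181).

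The proteasome list (46 tested) had a median of -0.045, with *Psmc5* at -0.12 (adjusted *p* = 0.25), *Psmd4* at -0.15 (adjusted *p* = 0.285) and *Psmb2* at -0.16 (adjusted *p* = 0.306). Heat shock and folding genes (35 tested) had a median of -0.055, with 7 lower and 0 higher at an unadjusted *p* value under 0.05. *Hspa5*, the chaperone BiP of the endoplasmic reticulum, was at -0.26 (adjusted *p* = 0.208), *Calr*, which encodes calreticulin, at -0.15 (adjusted *p* = 0.249) and *Hspb1* at -0.39 (adjusted *p* = 0.293). In these 5 lists 0 members were past the limma threshold.

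Apart from *Pvalb*, 0 genes of the marker lists were past the limma threshold. Oligodendrocyte and myelin markers (16 tested) had a median of -0.17, with 13 of 16 below 0 and 1 lower at an unadjusted *p* value under 0.05. Their summed level was 88244 to 106854 normalized counts in W12-HT and 83945 to 134116 in W12-WT mice, with WT1 the lowest of all 8 and the other W12-WT mice above every W12-HT mouse. *Mbp*, myelin basic protein, was at 32282, 45232, 49481 and 42850.1 normalized counts in the W12-WT mice and 32250.0, 36382, 38012 and 33530.1 in the W12-HT mice (log2 fold change -0.26, adjusted *p* = 0.426). Astrocyte markers (12 tested) had a median of -0.092, and 4 were lower and 0 higher at an unadjusted *p* value under 0.05 (33.3% lower, against 6.58% of all genes). These 4, named after their values were seen, were *Aldh1l1*, a folate enzyme, at -0.30 (adjusted *p* = 0.0785), *S100b*, a calcium-binding protein, at -0.25 (adjusted *p* = 0.11), *Gjb6*, a gap junction protein, at -0.44 (adjusted *p* = 0.148) and *Aldoc*, a glycolytic aldolase, at -0.16 (adjusted *p* = 0.168). *Aqp4*, the astrocyte water channel, was at 0.15 (adjusted *p* = 0.547), 1 of 5 astrocyte markers with a log2 fold change above 0. The summed level of the astrocyte list was 143324 to 164670 normalized counts in W12-HT and 146635 to 166044 in W12-WT mice. Microglia (12 tested) had a median of -0.035 and 1 member lower at an unadjusted *p* value under 0.05, with *Cx3cr1* at 0.0048 (adjusted *p* = 0.99). Endothelial cells (10 tested) had a median of -0.070 and 2 members lower, with *Cldn5* at -0.30 (adjusted *p* = 0.297). The striatal marker *Drd2*, a dopamine receptor, ranged from 116 in WT1 to 525 in WT4, with the W12-HT mice between 211 and 315 (adjusted *p* = 0.972).

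The remaining marker lists had medians of -0.053 for excitatory neurons, -0.016 for upper layers, 0.00051 for deep layers, -0.12 for oligodendrocyte precursors, -0.12 for pericytes and smooth muscle, -0.11 for meninges and fibroblasts, 0.31 for choroid plexus (4 of 10 tested), 0.19 for striatum, 0.063 for olfactory bulb (4 of 10 tested) and 0.044 for blood. The part of these cell types in the genes that changed was not tested.

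To ask how 1 mutant copy compared with 2, W12-HM mice were set against W12-HT mice in the same fit. 2 genes were past the threshold, or 0.0116% of those tested, with 1057 at an unadjusted *p* value under 0.05. *Shank2* was at 3015, 2737, 2698 and 3528 normalized counts in the W12-HM mice, all below the lowest W12-HT mouse (log2 difference -0.68, SE 0.088, adjusted *p* = 0.0221). *Lars2* was at 2749, 3429, 4100.2 and 3028 in the W12-HM mice, with means of 7067 in W12-HT, 4956 in W12-WT and 3326 in W12-HM mice (log2 difference -1.08, SE 0.15, adjusted *p* = 0.029). The W12-HT mean was the highest of the 3 genotypes. The count of 2 rested on single mice: it was 0 without HT1, HM1 or HM2, 1 without HT2, HT3, HT4, WT2 or HM4, 2 without WT1 or WT4 and 3 without WT3 or HM3.

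Among the 27 genes that separated W12-HT from W12-WT mice, *Shank2* was the only one past the threshold between W12-HM and W12-HT, and 9 had an unadjusted *p* value under 0.05. For 21 of the 27 the W12-HM mean lay between W12-WT and W12-HT, and for 6 it lay beyond W12-HT. Because the 27 were chosen by their W12-HT values, these positions are a description. *Ccnd1* was at 1527 ± 87.2 in W12-WT, 935 ± 188 in W12-HT and 589 ± 112 in W12-HM mice (SD, n = 4), and the difference between W12-HM and W12-HT missed the threshold (log2 difference -0.66, SE 0.13, adjusted *p* = 0.356). *Bc1* was at 244 ± 65.98 in W12-HM mice (SD, n = 4), close to the W12-HT mean of 237 (log2 difference 0.026, SE 0.19, adjusted *p* = 0.99). *Maml3* was at 302 ± 23.95 in W12-HM mice (SD, n = 4), above every W12-HT mouse (log2 difference 0.40, SE 0.089, adjusted *p* = 0.422). *Npy* was at 1318 ± 20.5 (SD, n = 4), also above every W12-HT mouse (log2 difference 0.18, SE 0.052, adjusted *p* = 0.752). The ribosomal protein list had a median W12-HM minus W12-HT difference of -0.0020.

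**Figure D5:**
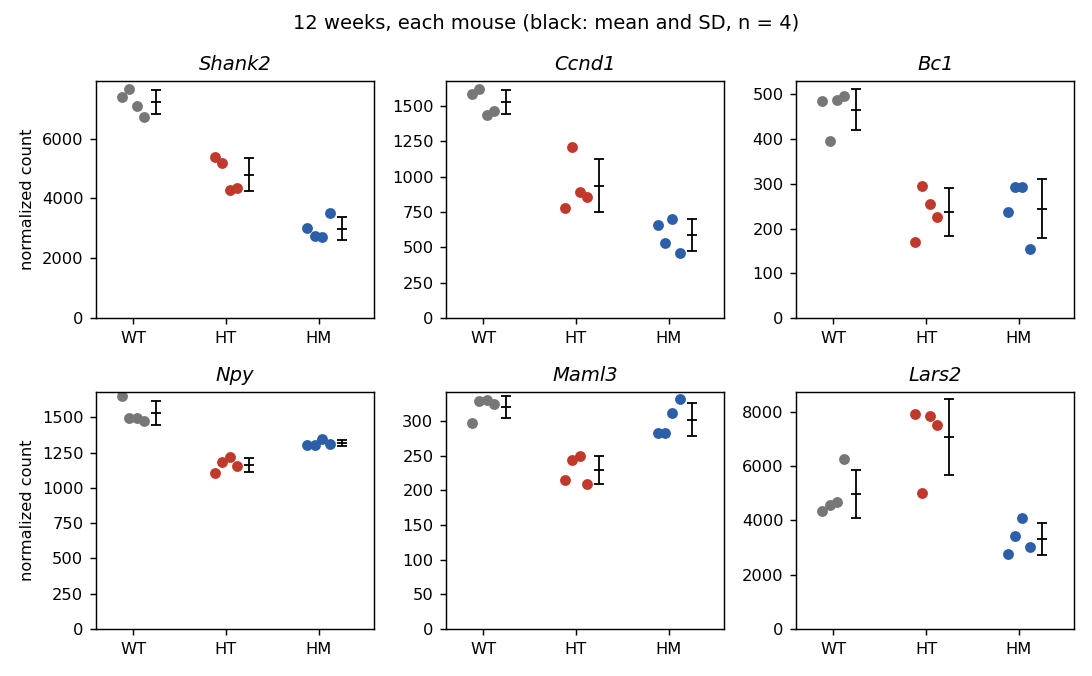
Normalized counts (vertical axis, from 0) of 6 genes in each W12-WT, W12-HT and W12-HM mouse, with the mean and SD of each group of 4 in black. The means of *Shank2* and *Ccnd1* are lower with each mutant copy, *Bc1* is at 237 in W12-HT and 244 in W12-HM mice, *Npy* and *Maml3* are lowest in W12-HT mice, and *Lars2* is highest in W12-HT mice.

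To ask whether the heterozygous effect depended on age, it was set against that in the 5 W3-HT and 5 W3-WT mice. The difference between the ages was past the threshold of limma in 0 of the 17241 genes (0%). The smallest adjusted *p* value was 0.706. Unadjusted *p* values under 0.05 were found for 1008 genes. Of the 27 genes, 23 had a log2 fold change of the same sign at 3 weeks, 15 of the 18 that fell and 8 of the 9 that rose. The share of all genes with the same sign at both ages was not computed, so these counts are a description only. At 3 weeks, *Gm26793* had 3.82 (SE 0.32), *Shank2* -0.50 (SE 0.084), *Bc1* -0.82 (SE 0.20) and *Ccnd1* -0.32 (SE 0.10). *Npy* had -0.23 (SE 0.053), *Pvalb* -0.085 (SE 0.095) and *Myl12b* 0.014 (SE 0.061), and the smallest unadjusted *p* value of the age difference among these 3 was 0.000182 for *Myl12b* (adjusted *p* = 0.706). Of the 84 ribosomal protein genes, 79 had a log2 fold change below 0 at 3 weeks, against 50.8% of all genes, with a median of -0.10. Nuclear-encoded oxidative phosphorylation genes had 76 of 81 below 0 and a median of -0.080. Not every list kept its sign. Of the 16 oligodendrocyte and myelin markers, 0 had a log2 fold change below 0 at 3 weeks, and their median was 0.16. At the later age 13 of these 16 were below 0, with a median of -0.17. The difference between the ages was not tested for whole lists. The W3 mice share no animal with the W12 mice, and all 27 samples were scaled together by the authors.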

How the data were processed

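Single-mouse mRNA libraries (TruSeq, poly-A selected, strand not kept) were sequenced as paired reads. The authors quantified transcripts with Salmon, using its quasi-mapping and GC bias options against GRCm38, imported gene totals through tximport and normalized these with DESeq2. The submitters' processing notes give Salmon 1.1.0, R 3.6.2 and DESeq2 1.26.0. The deposited values are a normalized signal per gene over 27 columns, scaled together with factors for library size and transcript length, and not whole read counts, so no count test was run. Depth is known only approximately from the lowest values, no counting error is given, and precision is the spread between mice, each a separate animal by the study's methods.

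Columns were matched to mice by the sample titles. Log2(value + 1) was fitted with limma 3.58.1 in R 4.3.3 with a variance trend, with the 3 genotypes of 12 weeks in one model (12 mice), over 17241 genes with a mean of at least 10 in the 8 W12-HT and W12-WT mice. *P* values were adjusted over all genes tested (Benjamini-Hochberg) and the threshold was 0.05. Every adjusted *p* value comes from limma. The age difference was tested in a fit of all 27 mice. Fold changes are on the log2(value + 1) scale, which understates those of low genes.

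Named were the *Shank* genes, every gene past the threshold, tested genes within 1.5 Mb of *Shank2* with an unadjusted *p* value under 0.05, the 3 genes with the smallest *p* values in each list of at least 5 tested members, and 7 defining markers. A gene past the threshold and a further list member that this rule names are not reported here. Members and lists were chosen with earlier results of these data known, and lists are described by counts and medians only. Positions, lengths and GC content come from GENCODE M21 (18744 genes matched) and promoters from RefSeq. Length and GC content were taken from the longest transcript of each gene. The alternatives were an offset of 10, no filter or a mean of at least 100, 8 mice alone, quantile or median-ratio scaling (5000 genes), limma sample weights, a correction by splines over length and GC content (5 degrees of freedom), a replicate block and each mouse left out. Leaving out W12-HM mice was added after seeing the data. The fit was tested on simulated data with known changes. The simulated noise was independent between genes, so shifts shared by many genes of a mouse were not covered. Python 3.11.15 with numpy 2.4.6, pandas 2.3.3 and matplotlib 3.10.9 was used for summaries and figures.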

Additional observations from a re-analysis of the deposited data

Results flagged for a closer look

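In each of the 182 groups of 4 mice formed by the 91 named genes in W12-HT and W12-WT, the gap between the most extreme mouse and its neighbor was set against the range of the group with Dixon's critical value for 4 samples. Chance flags about 1 in 20 groups, and 16 (8.79%) were flagged here.

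WT1 stood apart from the other W12-WT mice in 5 genes. It was high for *Shank3* at 10354 normalized counts (others 8733 to 8774), *Npy* at 1655 (others 1473 to 1497) and *Atp5k* at 961 (others 854 to 867), and low for *Maml3* at 297 (others 325 to 330.5) and *Setd5* at 3975 (others 4081 to 4101). WT2 was low for *Bc1* at 397 (others 484 to 496) and *mt-Nd2* at 92662 (others 109128 to 111902). WT3 was low for *Cxadr* at 959 (others 1036 to 1051).

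HT4 stood apart from the other W12-HT mice in 4 genes. It was high for *Rplp1* at 6657 (others 5891 to 5996), *Lcorl* at 927 (others 858 to 868) and *Eif3k* at 1577 (others 1284 to 1332), and low for *Farsa* at 835 (others 857 to 861). HT2 was low for *Lars2* at 5009.7 (others 7508 to 7921) and high for *Mrps6* at 315 (others 271 to 276). HT1 was high for *Mrgpre* at 426 (others 355 to 359) and low for *Tmsb4x* at 8572 (others 9522 to 9660.4). *Npy*, *Atp5k*, *Cxadr*, *Rplp1*, *Maml3* and *Lcorl* are past the threshold, and their groups do not overlap, as in all 27 such genes. The extreme mouse lay toward the other group for *Rplp1* and *Maml3*. For *Npy*, *Atp5k*, *Cxadr* and *Lcorl* it lay away from the other group and widened the difference in means.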

How the results depend on the processing

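Of the 27 genes, all kept their direction under every alternative in which they were tested. Leaving out a W12-HT or W12-WT mouse could not change it, because their groups do not overlap. The count (9 higher, 18 lower) was 197 (90 and 107) with limma sample weights, 47 (16 and 31) with the 8 mice alone, 6 (1 and 5) with the length and GC correction and 15 with the replicate block. The higher count was 14 with quantile normalization, 14 with median-ratio scaling and 3 with the block. Leaving out 1 mouse gave 1 to 93 genes, 1 to 38 higher and 0 to 55 lower. Ribosomal protein genes past the threshold (6) were 20 with sample weights, 3 with the block, 1 with the correction and 0 to 10 without 1 mouse. Between W12-HM and W12-HT (2), sample weights gave 1 and leaving out a mouse 0 to 3. The age difference was refitted only with an offset of 10, with a mean of at least 100 and with each HT or WT mouse of either age left out. It gave 0 each time, and the other alternatives were not run for it. The autism list's median turned from 0.064 to -0.0040 under the length and GC correction, and no other list median that exceeded its spread between mice changed sign. The cause was not tested, beyond what the corrections remove by construction.

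Same-numbered mice are not paired by the labels, and their deviations correlated at 0.10, 0.027, 0.033 and 0.17 across genes. HT1, HT3 and HT4 correlated best with their own number and HT2 with WT1. The block kept 11 of the 27 calls.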

Other observations

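The list of activity-dependent immediate early genes, transcription factors and effectors induced by neuronal firing, had a median log2 fold change of 0.045 over 33 tested members, with 0 past the limma threshold, 2 higher and 3 lower at an unadjusted *p* value under 0.05. In single mice the median deviation from the W12-WT mean was -0.35 in HT1, 0.19 in HT2, 0.11 in HT3 and 0.20 in HT4, and -0.097, 0.059, 0.0015 and 0.064 in WT1 to WT4. HT1 lay below all other mice and the remaining W12-HT mice above all W12-WT mice. The members with the smallest *p* values were lower: *Egr3* at 4053, 4446, 4458 and 3966 normalized counts in W12-HT and 4524, 5992, 5196 and 5482 in W12-WT mice (log2 fold change -0.32, adjusted *p* = 0.151), *Nptx2* at -0.36 (adjusted *p* = 0.153) and *Homer1*, whose products bind SHANK proteins, at -0.22 (adjusted *p* = 0.29). Without HT1, the immediate early genes *Fos* and *Junb* and the ectonucleotidase gene *Entpd1* were among 7 genes past the threshold, chosen here after their values were seen. With all mice, their log2 fold changes were 0.58 for *Fos* (adjusted *p* = 0.547), 0.42 for *Junb* (adjusted *p* = 0.377) and 0.53 for *Entpd1* (adjusted *p* = 0.127).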
